A study of Rattus norvegicus with 8 samples.

Results

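Nuclear hormone receptors were followed in the liver of male Zucker diabetic fatty rats, lean or obese, given vehicle or testosterone. A list of 37 receptor genes was taken by name, and the array probes whose transcript accession belongs to one of them were collected without regard to their measured values. Of the 37, 28 had a probe well above background in either dye on at least 4 of the 8 arrays, and these 28 stand among 9964 named genes and 24115 features (named genes and unnamed probes) tested in all. Pgr, the progesterone receptor, Vdr, the vitamin D receptor, and Nr4a3 each had a probe that was well above background on no array. No probe was named for Thrb, Rarb, Rarg, Nr6a1, Hnf4g or Rora, which are not analysed here.

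Each of the 8 dual-colour oligonucleotide arrays carried a vehicle liver sample in the Cy3 dye and, in Cy5, a liver sample from animals injected with testosterone undecanoate (TU), an ester that releases testosterone slowly. On 4 arrays both RNAs came from lean rats, genotype fa/+, and on 4 arrays from obese rats, genotype fa/fa, whose leptin receptor is defective. The lean rats are heterozygous for the same allele, all animals were male and are labelled 12 weeks old, and TU was injected subcutaneously at 20 mg/kg, every 3 days for 2 weeks and then weekly for 2 weeks. The 4 arrays of a genotype are labelled biological replicates, and it is not stated whether an array stands for a single animal, so the tests measure the spread between these samples. No dyes were exchanged, so TU and dye cannot be told apart in a ratio. All lean arrays lay on one slide and all obese arrays on another, and in any comparison of obese with lean the slide cannot be told apart from the genotype.

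Nuclear receptors are transcription factors that bind small fat-soluble ligands and switch the genes near their binding sites on or off. Steroid receptors (Esr1, Nr3c1, Nr3c2) bind hormones and act mostly as pairs of the same protein, whereas the receptors for thyroid hormone, retinoic acid, fatty acids, oxysterols, bile acids and foreign compounds pair with a retinoid X receptor (RXR). In liver they set fatty acid oxidation (PPAR alpha), fat and sterol handling (the LXRs), bile acid synthesis (FXR with its target SHP), drug clearance (PXR and CAR) and the hepatocyte programme itself (HNF4 alpha and its relatives).

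The share of probes well above background ranged from 58.0% to 68.9% for Cy3, and from 50.2% to 60.4% for Cy5. Obese replicate 2 stood apart: the SD of its log2 ratios was 0.462 over all features tested and 0.628 over the 28 receptors, against 0.107 to 0.255 and 0.13 to 0.366 on the other 7 arrays. Results that rest on it are given with and without it. Of 9 hepatocyte markers, such as Alb and Apoa1, 8 were well above background in both channels of every array. All levels below are log2 intensities after background correction and normalization, where an offset of 50 is added to each signal, so values near 6.7 lie at the floor and differences of dim probes are compressed. Levels of different probes are not comparable.

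TU was compared with vehicle within each array, which asks how the receptors responded to the androgen. In the lean arrays 0 of 28 receptors passed the limma test at an adjusted p under 0.05, where 0.204% of all features did, and in the obese arrays also 0 of 28, where 0.0124% did. At an unadjusted p under 0.05, 5 of 28 receptors lay below it in lean (17.9%, against 15.3% of all features) and 4 of 28 in obese (14.3% against 12.6%), shares near the background. The test of obese minus lean response called 0 of 28, with 1 of 28 (3.57%) at an unadjusted p under 0.05, against 0.00416% and 7.94% of all features. The log2 ratio had a single sign on all 4 lean arrays for 12 receptors (42.9%, against 30.5% of features) and on all 4 obese arrays for 4 receptors (14.3% against 23.5%). The receptors' median log2 ratio was -0.063 in lean and -0.055 in obese, beside -0.017 and -0.0058 over all features, and the half-width of a receptor's 95% confidence interval had a median of 0.24 in either genotype. Without obese replicate 2, 0 receptors passed in either genotype, the unadjusted counts became 8 in lean and 0 in obese, and the obese median became -0.026. Over all features the number called in lean went from 49 to 1112 without that array. The number at an unadjusted p under 0.05 went from 3673 to 5752 of 24057 features in lean. In obese it went from 3047 of 24114 features to 1611 of 24111. Both genotypes share an estimate of spread in this fit.

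**Figure D1:**
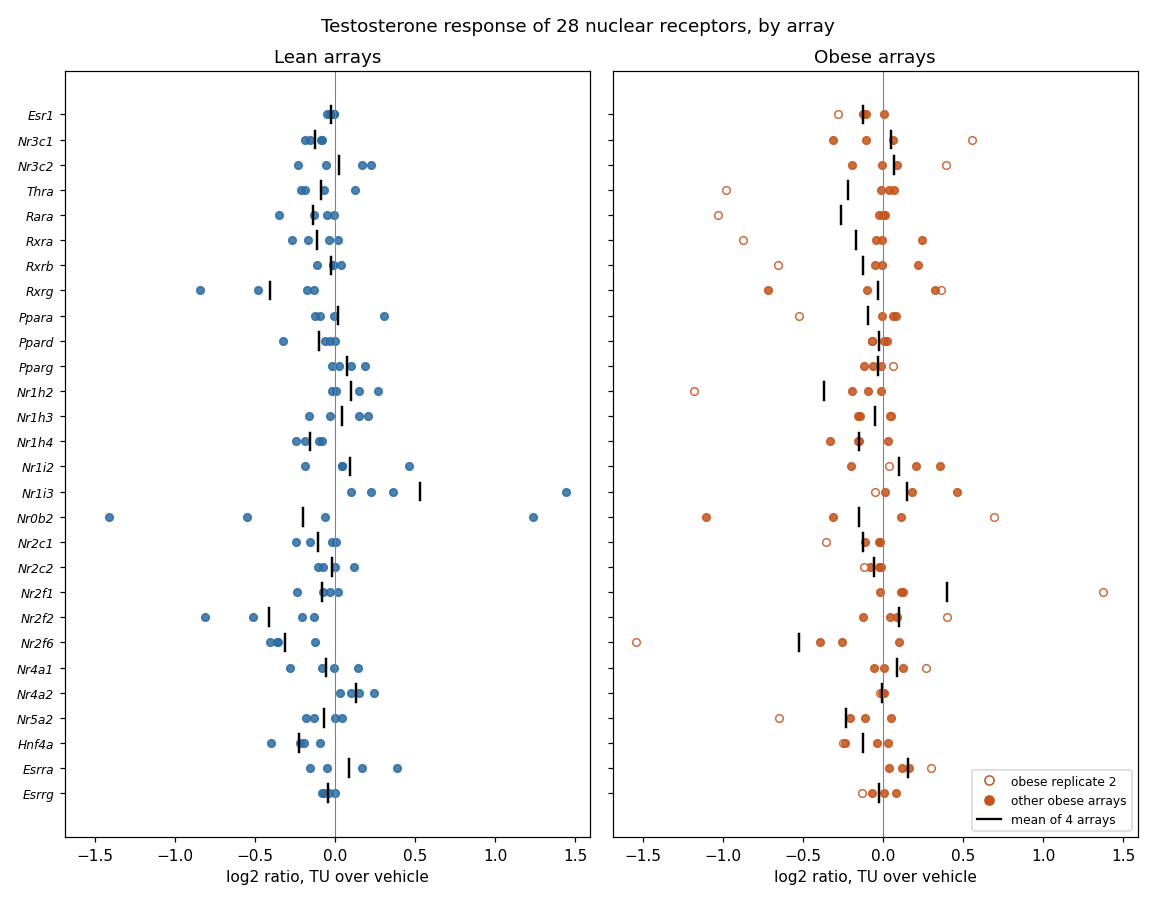
Log2 ratio of TU over vehicle (x axis) for the 28 receptors (rows) on each array, lean on the left and obese on the right; points are arrays, black bars are means of 4 arrays and open circles are obese replicate 2. Most points lie within 0.5 of 0, Nr1i3 lies above 0 on every lean array, and obese replicate 2 lies far from the other 3 obese arrays for receptors such as Nr2f6 (-1.54), Nr1h2 (-1.18) and Nr2f1 (1.38).

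Among the steroid receptors, Esr1 (estrogen receptor alpha) sat at the floor of the array. Its log2 ratio was -0.04, -0.05, -0.0081 and -0.0083 on lean replicates 1 to 4, and its TU signal was not well above background on any lean array. On the obese arrays the ratio was -0.13, -0.28, 0.0047 and -0.11, with a mean of -0.13 ± 0.0509 (SE, n = 4, adjusted p = 0.384 by limma). Nr3c1, the glucocorticoid receptor, read -0.19, -0.16, -0.09 and -0.08 in lean and -0.31, 0.56, 0.06 and -0.11 in obese on its brightest probe, with means of -0.13 ± 0.116 and 0.05 ± 0.116 (SE). The lean values all lay below 0 and the obese values on both sides. Its other probes gave lean means of 0.11 ± 0.14 and 0.11 ± 0.143, opposite in sign, so no direction is given for Nr3c1. Nr3c2, the mineralocorticoid receptor, had means of 0.02 in lean and 0.07 in obese, with 2 of 4 ratios above 0 in each genotype.

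The xenobiotic receptor CAR (Nr1i3), which induces drug-metabolizing enzymes, had the highest mean ratio of the 28 in lean liver. Its ratios were 0.36, 1.44, 0.22 and 0.10 on lean replicates 1 to 4, all above 0, with a mean of 0.53 ± 0.197 (SE), or 1.44-fold, that did not pass the test (adjusted p = 0.256 by limma). Lean replicate 2 was well above the other lean arrays, on this probe and on a second one (0.17, 1.34, 0.20 and 0.21). On the obese arrays the ratios were 0.46, -0.05, 0.01 and 0.18, with a mean of 0.15 ± 0.197. The difference between genotypes was -0.38, with a 95% confidence interval of -1.01 to 0.25. Nr1i2, the pregnane X receptor (PXR), had means of 0.09 in lean and 0.10 in obese.

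The lowest lean mean belonged to Nr2f2 (COUP-TFII), an orphan receptor of vessels and mesenchyme as well as hepatocytes. Its ratios were -0.82, -0.21, -0.51 and -0.13 in lean, all below 0, and 0.04, 0.40, -0.13 and 0.08 in obese. The lean mean was -0.42 ± 0.118 (SE, adjusted p = 0.161 by limma) and the obese mean 0.10 ± 0.118, or -0.00069 without obese replicate 2. The difference between genotypes, 0.52 ± 0.167, was the largest of the 28 and had an adjusted p of 0.614. Marker lists of 3 other cell types also lay below 0 with TU in lean, with no gene called in any of them. Of 6 endothelial genes 5 were below 0 (median -0.093), of 8 stellate cell genes 7 (median -0.21), and of 10 Kupffer cell and macrophage genes 0 lay above 0 (median -0.17). The Kupffer cell list lay below 0 in obese too, with 0 of 10 above 0 and a median of -0.20. The mean log2 level of the stellate list ranged from 9.70 to 9.94 in lean vehicle and 9.48 to 9.64 in lean TU, that of the endothelial list from 9.54 to 9.68 and 9.46 to 9.61, and that of the Kupffer cell list from 10.13 to 10.64 and 10.14 to 10.37. Their part in the Nr2f2 values was not tested, and in whole liver fewer cells of a type and less RNA per cell cannot be told apart.

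HNF4 alpha (Hnf4a), the receptor that keeps up hepatocyte identity, had ratios of -0.19, -0.22, -0.40 and -0.10 in lean and -0.03, -0.25, 0.03 and -0.24 in obese. All lean values lay below 0, with a mean of -0.23 ± 0.0667 (SE, adjusted p = 0.171 by limma), and the obese mean was -0.12 ± 0.0667. A second Hnf4a probe gave -0.01 ± 0.168 in lean. FXR (Nr1h4), the bile acid receptor, gave -0.25, -0.09, -0.19 and -0.10 in lean and -0.33, -0.16, -0.15 and 0.03 in obese, or means of -0.16 ± 0.0611 and -0.15 ± 0.0611 (adjusted p = 0.275 and 0.384). It was below 0 on 7 of 8 arrays. SHP (Nr0b2), the corepressor that FXR induces, was the most scattered receptor: -1.42, -0.07, -0.55 and 1.23 in lean and -1.10, 0.70, -0.31 and 0.11 in obese. Its means, -0.20 and -0.15, each had an SE of 0.396, and the 95% confidence intervals ran from -1.10 to 0.70 in lean and from -1.05 to 0.75 in obese. The lean and obese ratios of SHP overlapped.

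PPAR alpha (Ppara), which drives fatty acid oxidation in fasting, had ratios of -0.13, 0.30, -0.10 and -0.01 in lean and 0.06, -0.52, -0.0048 and 0.08 in obese. The means, 0.02 ± 0.109 and -0.10 ± 0.109 (SE), were within their errors of 0. LXR alpha (Nr1h3), the liver's main oxysterol receptor, gave -0.03, -0.17, 0.21 and 0.15 in lean and -0.14, 0.05, 0.05 and -0.15 in obese. Its means were 0.04 ± 0.0706 and -0.05 ± 0.0706, with 95% confidence intervals of -0.12 to 0.20 and -0.21 to 0.11. LXR beta (Nr1h2) had an obese mean of -0.37 that rested on obese replicate 2 (-1.18, against -0.02, -0.10 and -0.19 on the others), and the mean without that array was -0.10. Ppard and Pparg had means between -0.10 and 0.07 in both genotypes.

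RXR alpha (Rxra), the main RXR of hepatocytes, gave -0.27, 0.01, -0.04 and -0.17 in lean and 0.24, -0.88, -0.01 and -0.04 in obese, with means of -0.12 ± 0.152 and -0.17 ± 0.152 (SE). RXR gamma (Rxrg) lay below 0 on all 4 lean arrays (-0.48, -0.85, -0.18 and -0.13), with a mean of -0.41 ± 0.181 and an adjusted p of 0.33 by limma. In obese its values (-0.72, 0.36, 0.33 and -0.10) spread to both sides of 0. A second Rxrg probe gave -0.23 ± 0.119 in lean and -0.30 ± 0.119 in obese. The obese minus lean difference was 0.38 ± 0.255 on the brightest probe and -0.07 ± 0.168 on the second, so the probes disagree on it. The remaining receptors had means between -0.31 (Nr2f6) and 0.13 (Nr4a2) in lean. In obese they lay between -0.52 (Nr2f6) and 0.40 (Nr2f1). Without obese replicate 2 these means were -0.18 and 0.07. That array also read -0.98 for Thra and -1.03 for Rara, receptors of thyroid hormone and retinoic acid, whose obese means without it were 0.03 and -0.0034. A second Nr2f1 probe gave means of 0.12 ± 0.0601 in lean and 0.05 ± 0.0601 in obese, against -0.08 and 0.40 on the brightest.

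Obese and lean livers were then compared within a dye, which asks which receptors differ with the leptin receptor defect, under vehicle (Cy3) and under TU (Cy5). Under vehicle 8 of 28 receptors passed (28.6%, against 14.9% of all features): 6 were higher in obese (21.4% against 7.54%) and 2 lower (7.14% against 7.39%). Under TU 8 of 28 passed as well (28.6% against 20.8%), again 6 higher (21.4% against 11.8%) and 2 lower (7.14% against 8.95%). Rxrg, Nr1h2, Nr1h4, Nr2c2 and Nr4a1 were higher and Nr1i3 lower under both treatments. Esr1 (higher) and Nr2f2 (lower) passed under vehicle, and Rxra (higher) and Pparg (lower) under TU. The receptors' median difference was 0.19 under vehicle and 0.15 under TU, beside 0.0067 and 0.015 over all features. Both comparisons use the same 8 arrays and 2 slides, so the second is no independent repeat of the first. Without obese replicate 2, 11 receptors passed under vehicle (9 higher, 2 lower) and 7 under TU (5 higher, 2 lower). Of 24053 features, 4681 and 4027 passed without that array, against 3591 and 4994 of 24056 with it. Without any 1 lean array the vehicle count was 2 or 3, and without obese replicates 1, 3 and 4 it was 8, 6 and 4. The TU count was 4 to 7 without any 1 lean array, and 10, 6 and 6 without those obese arrays. The counts over all features moved too. Without any 1 lean array they were 1525 to 1617 under vehicle and 3189 to 3490 under TU. Without those obese arrays they were 5034, 3445 and 2517 under vehicle and 7684, 3811 and 3969 under TU. No array left out turned the direction of a call. With the replicate number as a block, 1 receptor passed under vehicle (Nr1i3) and 6 under TU, where 1491 and 4749 of 24056 features did.

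**Figure D2:**
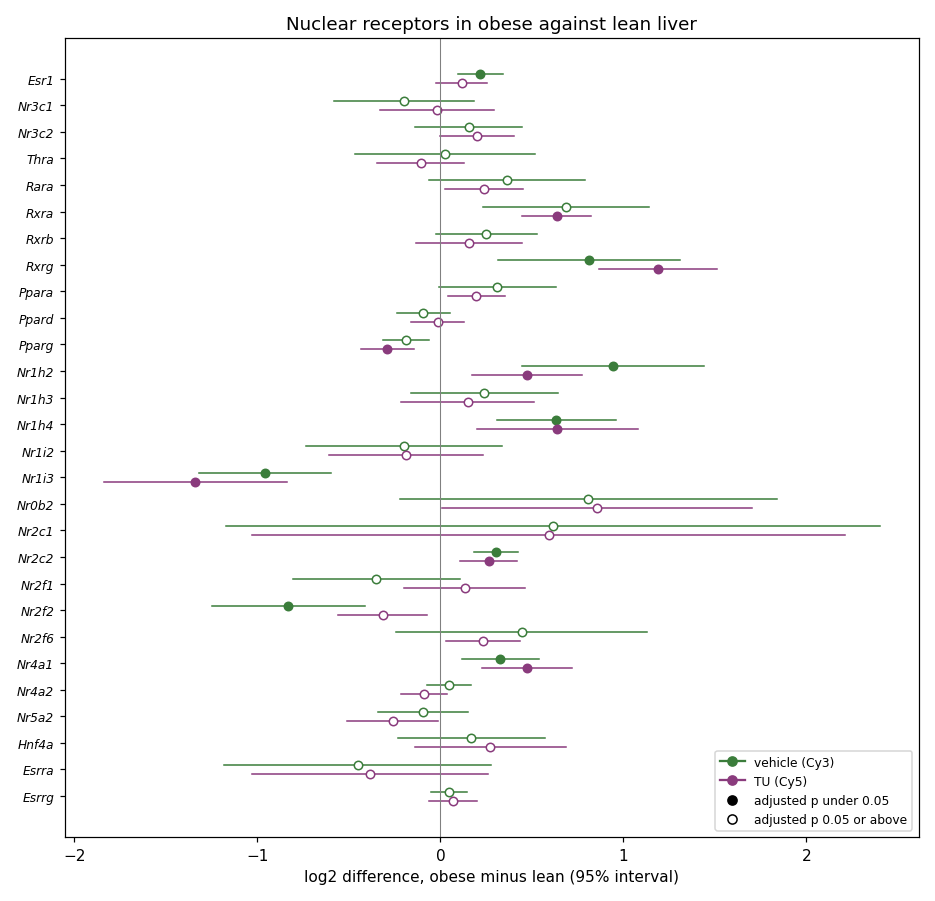
Obese minus lean difference in log2 intensity (x axis) for the 28 receptors (rows), in vehicle (green, Cy3) and TU (purple, Cy5); points are estimates of 4 obese against 4 lean arrays, lines are 95% confidence intervals and filled points have an adjusted p under 0.05. Nr1i3 lies lowest at -0.96 and -1.34, Rxrg lies at 0.81 and 1.19, and the widest intervals are those of Nr2c1.

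RXR gamma and CAR had the largest differences in each direction under TU, and the 250 bases before the start of their genes are printed to show the regulatory sequence next to each. Both are from RefSeq on GRCr8 and on the plus strand, Rxrg at chr13:82276237-82276486 and Nr1i3 at chr13:86165170-86165419. Capitals mark a match to CCAAT or to the receptor core site AGGTCA, searched on both strands.
Rxrg: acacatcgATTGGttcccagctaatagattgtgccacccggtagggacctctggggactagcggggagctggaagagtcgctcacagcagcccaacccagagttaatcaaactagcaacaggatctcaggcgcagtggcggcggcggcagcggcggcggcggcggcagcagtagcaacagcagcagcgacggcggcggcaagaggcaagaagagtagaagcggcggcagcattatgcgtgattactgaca
Nr1i3: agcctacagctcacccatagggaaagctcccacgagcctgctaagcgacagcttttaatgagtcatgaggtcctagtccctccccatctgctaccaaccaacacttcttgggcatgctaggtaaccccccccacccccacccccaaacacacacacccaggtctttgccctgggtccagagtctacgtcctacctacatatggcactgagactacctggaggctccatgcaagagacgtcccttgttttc
The Rxrg stretch holds a CCAAT match on the reverse strand, starting at -242 from the start of the gene, and the Nr1i3 stretch holds neither motif. RefSeq promoters were matched for 31 of the 37 listed receptors, 39 promoters in all, and for 8 of the 10 that passed a test, whereas Nr1h4 and Nr2f2 were not matched. AGGTCA is found in 3 of the 39 promoters (7.69%) and CCAAT in 10 (25.6%), against 14.1% and 34.0% of 33469 promoters of that length. Of the 9 promoters of receptors that passed, 0 hold AGGTCA and 2 hold CCAAT.

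CAR (Nr1i3) had the largest decrease of the 28 receptors in obese liver. Its vehicle levels were 8.32, 7.81, 8.17 and 8.26 on lean replicates 1 to 4 and 7.17, 7.30, 7.42 and 6.82 on obese replicates 1 to 4. Its TU levels were 8.68, 9.25, 8.39 and 8.36 in lean and 7.63, 7.25, 7.43 and 7.0 in obese. Every obese level lay below every lean level in both dyes. CAR was 1.95-fold lower under vehicle (log2 difference -0.96 ± 0.157, SE, adjusted p = 0.00876) and 2.53-fold lower under TU (-1.34 ± 0.218, adjusted p = 0.00514 by limma). A second probe gave -0.78 ± 0.127 and -1.02 ± 0.171. The call held without any 1 of the 8 arrays in both dyes. On the scanner software's processed signals, which carry no such offset, the differences were -2.12 and -2.08. PXR (Nr1i2), the related receptor, had differences of -0.20 ± 0.231 and -0.19 ± 0.183, with overlapping groups.

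Of the 12 PXR and CAR target genes measured, 0 were higher and 1 lower in obese under vehicle, and 1 was higher and 3 lower under TU. Over all features 7.54% were higher and 7.39% lower under vehicle, and 11.8% and 8.95% under TU. Cyp3a2, a male-predominant drug-metabolizing P450, was far lower in both dyes (-4.89 ± 0.676 and -4.69 ± 0.786). Under TU, Slco1a4, an uptake transporter, and Gstm1, a glutathione transferase, were also lower (-0.54 ± 0.125 and -0.45 ± 0.0759), and the sulfotransferase Sult2a1 was higher (1.03 ± 0.201). The first measured genes on the list, Cyp2b1 and Cyp2c6v1, had differences of -0.44 ± 0.356 and 0.40 ± 0.166 under vehicle, neither past the test. The list's median was 0.0056 under vehicle and -0.069 under TU. The calls of Cyp3a2, Gstm1 and Sult2a1 held without any 1 array, and that of Slco1a4 was lost without either of 2 arrays (adjusted p up to 0.0543).

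RXR gamma had the largest rise of the 28 receptors under TU. Rxrg read 11.49, 11.77, 11.43 and 11.45 in lean vehicle and 12.76, 11.83, 12.11 and 12.68 in obese vehicle. It read 11.01, 10.92, 11.25 and 11.31 in lean TU and 12.04, 12.19, 12.44 and 12.58 in obese TU. The groups did not overlap in either dye, and the gap between them was narrow under vehicle and wide under TU. The difference was 0.81 ± 0.214 (SE, 1.76-fold, adjusted p = 0.0431) under vehicle and 1.19 ± 0.14 (2.28-fold, adjusted p = 0.00148 by limma) under TU. A second probe gave 0.69 ± 0.166 and 0.62 ± 0.0636. The TU call held without any 1 array, whereas the vehicle call was lost without any 1 of the 4 lean arrays or of obese replicates 1, 3 and 4 (adjusted p 0.0506 to 0.116), and fell to 0.48 on the processed signals (adjusted p = 0.244).

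RXR alpha (Rxra) read 7.83, 7.82, 7.65 and 7.73 in lean vehicle and 8.17, 9.08, 8.24 and 8.29 in obese vehicle, and 7.55, 7.83, 7.61 and 7.56 against 8.41, 8.21, 8.23 and 8.24 under TU. The groups did not overlap in either dye. It was 1.55-fold higher in obese under TU (0.64 ± 0.0814, SE, adjusted p = 0.00202), which held without any 1 array and was 1.11 on the processed signals. Under vehicle the difference of 0.69 ± 0.196 missed the threshold (adjusted p = 0.0541 by limma). Obese replicate 2 was the highest vehicle array, and without it the difference was 0.48 and passed (adjusted p = 0.00468), as it did without obese replicate 1 (0.78, adjusted p = 0.04). RXR beta (Rxrb) had differences of 0.25 ± 0.119 and 0.16 ± 0.125 with overlapping groups.

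FXR (Nr1h4) and LXR beta (Nr1h2), receptors of bile acids and of oxysterols, were both higher in obese liver. Nr1h4 read 9.03, 9.0, 9.23 and 9.15 in lean vehicle and 9.32, 9.95, 9.81 and 9.86 in obese vehicle. It read 8.78, 8.92, 9.04 and 9.05 in lean TU and 8.99, 9.80, 9.66 and 9.89 in obese TU. Obese replicate 1 stayed nearest the lean arrays in both dyes and overlapped them under TU. The differences were 0.63 ± 0.14 (SE, 1.55-fold, adjusted p = 0.0248) and 0.64 ± 0.19 (1.56-fold, adjusted p = 0.0486 by limma). The vehicle call was lost without any 1 of the 4 lean arrays or obese replicate 4 (adjusted p 0.0561 to 0.0758). The TU call was lost without any 1 array other than obese replicate 1 (0.088 to 0.124).

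Nr1h2 read 10.65, 10.49, 10.56 and 10.59 in lean vehicle and 11.52, 12.16, 11.04 and 11.34 in obese vehicle. It read 10.80, 10.76, 10.54 and 10.59 in lean TU and 11.50, 10.98, 10.94 and 11.14 in obese TU. The groups did not overlap in either dye. The differences were 0.94 ± 0.215 (SE, 1.92-fold, adjusted p = 0.0276) under vehicle and 0.47 ± 0.131 (1.39-fold, adjusted p = 0.0382 by limma) under TU. The vehicle call was lost without any 1 lean array (adjusted p 0.0714 to 0.0798) and the TU call without any 1 lean array or obese replicate 4 (0.0625 to 0.0999). On the processed signals the TU difference was 0.25 (adjusted p = 0.26).

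SHP (Nr0b2) and LXR alpha (Nr1h3) did not pass. Nr0b2 read 13.70, 12.52, 12.84 and 12.04 in lean vehicle and 13.59, 12.66, 14.39 and 13.69 in obese vehicle, and 12.29, 12.46, 12.29 and 13.27 against 12.48, 13.36, 14.08 and 13.81 under TU. The groups overlapped in both dyes. The differences, 0.81 ± 0.443 and 0.85 ± 0.367 (SE), were as large as those of called receptors, with adjusted p of 0.257 and 0.141 by limma. Without obese replicate 1 the TU difference was 1.17 and passed (adjusted p = 0.0166). Nr1h3 read 13.66 to 13.84 in lean vehicle and 14.10, 13.46, 14.10 and 14.32 in obese vehicle, or 0.24 ± 0.173, and 0.15 ± 0.158 under TU. Without obese replicate 2, its lowest vehicle array, the vehicle difference was 0.42 and passed (adjusted p = 0.013).

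Target genes of FXR and the LXRs included calls in both directions. Of 10 measured FXR and bile acid genes, 0 passed under vehicle and only Abcb11, the bile salt export pump, under TU (0.44 ± 0.111, SE), a call lost without any of 5 arrays (adjusted p up to 0.0732). The list's median was 0.32 and 0.42. Of 11 LXR targets, 3 were higher and 2 lower in obese under vehicle, and 2 higher and 1 lower under TU. Beside both lists, 7.54% of all features were higher and 7.39% lower under vehicle, and 11.8% and 8.95% under TU. Abca1, a cholesterol exporter, was higher in both (0.42 ± 0.0692 and 0.55 ± 0.0888), as was the phospholipid enzyme Lpcat3 (0.95 ± 0.251 and 0.74 ± 0.0989), and the desaturase Scd was higher under vehicle (2.01 ± 0.29). Abcg5, a subunit of the sterol exporter of bile, fell by 3.42 and 1.96 on the log2 scale. Its partner Abcg8 was 1.16-fold lower under vehicle (adjusted p = 0.0421 by limma). Abcg8 was well above background on all 4 lean and on no obese array in either dye. Its fold is thus a bound set by the floor, and the measured group means were 6.88 and 6.67. Such a bound sets the brighter group's mean against the dimmer group's mean of, per array, the lowest signal among probes well above background or the probe's own, whichever is higher. The bounds take no account of the spread between arrays. They set obese against lean within a dye, and the slide cannot be told apart from the genotype. The calls of Abca1, Abcg5 and Scd held without any 1 array, whereas that of Lpcat3 under vehicle was lost without any of 5 arrays and that of Abcg8 without any of 7 (adjusted p up to 0.111 and 0.124).

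PPAR alpha (Ppara) itself did not pass in either dye. Ppara read 8.12, 7.92, 8.05 and 8.0 in lean vehicle and 8.19, 8.76, 8.21 and 8.17 in obese vehicle, and 7.99, 8.22, 7.96 and 7.99 against 8.24, 8.24, 8.21 and 8.26 under TU. The groups did not overlap under vehicle and overlapped slightly under TU. The differences were 0.31 ± 0.138 and 0.20 ± 0.0683 (SE, adjusted p = 0.172 and 0.0794 by limma). Without lean replicate 2, the highest lean TU array, the TU difference was 0.26 and passed (adjusted p = 0.0207). Without obese replicate 2 it was 0.20 (adjusted p = 0.14).

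Of 15 PPAR alpha targets measured, 6 were higher and 1 lower in obese under vehicle, where 7.54% and 7.39% of all features were, and 7 higher and 1 lower under TU, where 11.8% and 8.95% were. With the replicate number as a block the count was 2 higher and 1 lower under vehicle, and 6 higher and 1 lower under TU. The block ended the vehicle calls of Cpt1a, Acot1 and Hadha, among others (adjusted p = 0.0856, 0.0558 and 0.0527 by limma). Fgf21, a fasting hormone, had the largest difference, 2.94 ± 0.471 under vehicle and 2.21 ± 0.349 under TU (SE). The pantetheinase Vnn1 (1.47 ± 0.353 and 1.39 ± 0.22), Acot1 and Hadha were also higher under both treatments. Both Hadha calls were lost with the gene's probes averaged, and the vehicle call also on a filter that asks for all arrays. The Hadha probe was well above background on 3 of 4 obese arrays in each dye and on all 4 lean arrays. Cpt1a, the gate of mitochondrial fatty acid entry, was higher under vehicle (1.54 ± 0.343), and Cpt2 and Acadl under TU, where the Cpt2 call was lost with the replicate block (adjusted p = 0.0559). Acadm, a dehydrogenase of the same pathway, was lower in both (-0.58 ± 0.114 and -0.63 ± 0.144). Cyp4a1, the first gene of the list, had a difference of 1.76 with an SE of 1.75. The list's median was 0.64 and 0.48, or 0.50 and 0.48 without obese replicate 2. The calls of Fgf21 and, under TU, of Vnn1 held without any 1 array. The others were lost without 1 to 6 of the arrays (adjusted p up to 0.0951).

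Pparg and Esr1 are dim on these arrays, and their differences are small on this scale. PPAR gamma (Pparg), the receptor of fat cells, read 7.22, 7.14, 7.20 and 7.21 in lean TU and 6.76, 6.96, 6.99 and 6.90 in obese TU, with no overlap. Under vehicle it read 7.04, 7.16, 7.18 and 7.11 against 6.88, 6.89, 7.0 and 6.96. It was 1.22-fold lower under TU (-0.29 ± 0.0632, SE, adjusted p = 0.0159 by limma), a call that held without any 1 array, and -0.19 ± 0.0542 under vehicle did not pass (adjusted p = 0.0576). On the processed signals the TU difference was -1.53. Of 5 listed adipocyte genes, Cfd and Fabp4 were measured. Cfd was lower in both dyes. Fabp4, well above background on all 4 obese and on no lean array, was higher by bounds of 1.27-fold (vehicle) and 1.52-fold (TU). Its lean and obese means were 6.66 and 7.01 under vehicle and 6.71 and 7.32 under TU (adjusted p = 0.0184 and 0.00752 by limma). The list's median was -0.24 under vehicle and -0.18 under TU; their part in the Pparg values was not tested.

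Esr1 read 6.73, 6.74, 6.72 and 6.72 in lean vehicle and 6.87, 7.01, 6.88 and 7.03 in obese vehicle, with no overlap. The difference was 0.22 ± 0.0531 (SE, 1.16-fold, adjusted p = 0.0339 by limma), or 1.52 on the processed signals. The call was lost without any 1 lean array or obese replicate 4 (adjusted p 0.0713 to 0.0999). Under TU the probe was well above background on 3 of 4 obese arrays and on 0 of 4 lean arrays. The fitted means were 6.82 in obese and 6.70 in lean, a 1.08-fold difference that did not pass (adjusted p = 0.217 by limma). The confidence interval of this difference ran from -0.0232 to 0.256 on the log2 scale and included 0, so no least fold is given. The obese TU levels were 6.74, 6.72, 6.89 and 6.92, against 6.69 to 6.71 in lean TU. Esrrg, an estrogen-related orphan receptor, was well above background in vehicle on 2 arrays of each genotype and in TU on none.

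COUP-TFII (Nr2f2) was lower in obese vehicle liver. It read 10.48, 10.11, 10.14 and 9.93 in lean vehicle and 9.50, 8.85, 9.43 and 9.56 in obese vehicle, with no overlap, and 9.66, 9.90, 9.63 and 9.80 against 9.54, 9.25, 9.30 and 9.64 under TU, where the groups overlapped slightly. The differences were -0.83 ± 0.181 (SE, 1.78-fold, adjusted p = 0.0239) and -0.32 ± 0.106 (adjusted p = 0.0716 by limma). The vehicle call was lost without lean replicate 1, 2 or 3 (adjusted p 0.0634 to 0.0674), and under TU it was gained without obese replicate 4 (-0.39, adjusted p = 0.0415). Of 6 measured markers of endothelium, where Nr2f2 is also expressed, 5 were below 0 in both dyes. Their median was -0.25 under vehicle, with Tek passing, and -0.23 under TU, with Tek, Lyve1 and Pecam1 lower and Fcgr2b higher. With the replicate block under TU the calls of Pecam1 and Fcgr2b were lost (adjusted p = 0.0786 and 0.0549). Tek was well above background on all 4 lean and on no obese array in either dye. It was lower in obese by bounds of 1.63-fold under vehicle and 1.95-fold under TU. Its lean and obese means were 7.37 and 6.66 under vehicle and 7.64 and 6.65 under TU (adjusted p = 0.00185 and 4e-04 by limma). On a filter that asks for all arrays, where another probe stands for Tek, the direction turned (0.039 and 0.022, adjusted p = 0.669 and 0.861). The mean level of that list ranged from 9.54 to 9.68 in lean and from 9.15 to 9.40 in obese vehicle, and Stab1, Stab2 and Clec4g were not among the genes tested. Markers of stellate cells, mesenchymal cells of the liver, lay the other way, with medians of 0.21 and 0.47 over 8 genes. Of these, Col3a1 and Pdgfrb were higher and Lrat lower in both dyes, and Col1a1 was higher under TU, a call lost with the replicate block (adjusted p = 0.0631). The mean level of the stellate list ranged from 9.66 to 10.06 in obese vehicle, against 9.70 to 9.94 in lean vehicle, and from 9.84 to 10.55 in obese TU, against 9.48 to 9.64 in lean TU. The part of either cell type in the Nr2f2 difference was not tested. Of 10 Kupffer cell and macrophage markers, 0 passed under vehicle, and under TU Vsig4 was higher and C1qa and Clec4f lower. Of 9 hepatocyte markers, 4 were higher and 0 lower under vehicle (median 0.096), and 3 higher and 1 lower under TU (median -0.072). With the replicate block 1 was higher under vehicle and 2 under TU, and 0 lower. Over all features 7.54% were higher and 7.39% lower under vehicle in the main fit, and 11.8% and 8.95% under TU.

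Nr2c2 (TR4), an orphan receptor, and Nr4a1, an early-response orphan receptor, showed small rises in both dyes. Nr2c2 read 7.0, 6.96, 6.93 and 6.93 in lean vehicle and 7.26, 7.27, 7.17 and 7.34 in obese vehicle, a difference of 0.30 ± 0.0519 (SE, adjusted p = 0.0101 by limma) that held without any 1 array. Under TU it read 6.89, 7.08, 6.92 and 6.86 against 7.18, 7.15, 7.16 and 7.31, or 0.26 ± 0.068 (adjusted p = 0.0291). The groups did not overlap in either dye. The TU call was lost without lean replicate 1, 3 or 4 or obese replicate 3 or 4 (0.0538 to 0.082) and with the replicate number as a block (0.0742). The block also ended the vehicle call (0.0548). On the processed signals the differences were 1.03 and 0.98.

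Nr4a1 read 7.36, 7.33, 7.32 and 7.27 in lean vehicle and 7.83, 7.42, 7.73 and 7.61 in obese vehicle, and 7.07, 7.32, 7.46 and 7.19 against 7.96, 7.69, 7.68 and 7.61 under TU, with no overlap. Its differences were 0.33 ± 0.0898 (SE, adjusted p = 0.048) and 0.47 ± 0.107 (adjusted p = 0.0181 by limma), or 0.99 and 1.04 on the processed signals. The vehicle call was lost without any 1 array other than obese replicate 2 (0.0564 to 0.129), and on a filter that asks for all arrays (0.05). The TU call was lost without lean replicate 4 (0.0553), with the replicate block (0.0509) and with quantile normalization of the dye alone (a difference of 0.37, 0.0664). Nr4a2, its relative, had differences of 0.05 ± 0.0515 and -0.09 ± 0.0543.

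**Figure D3:**
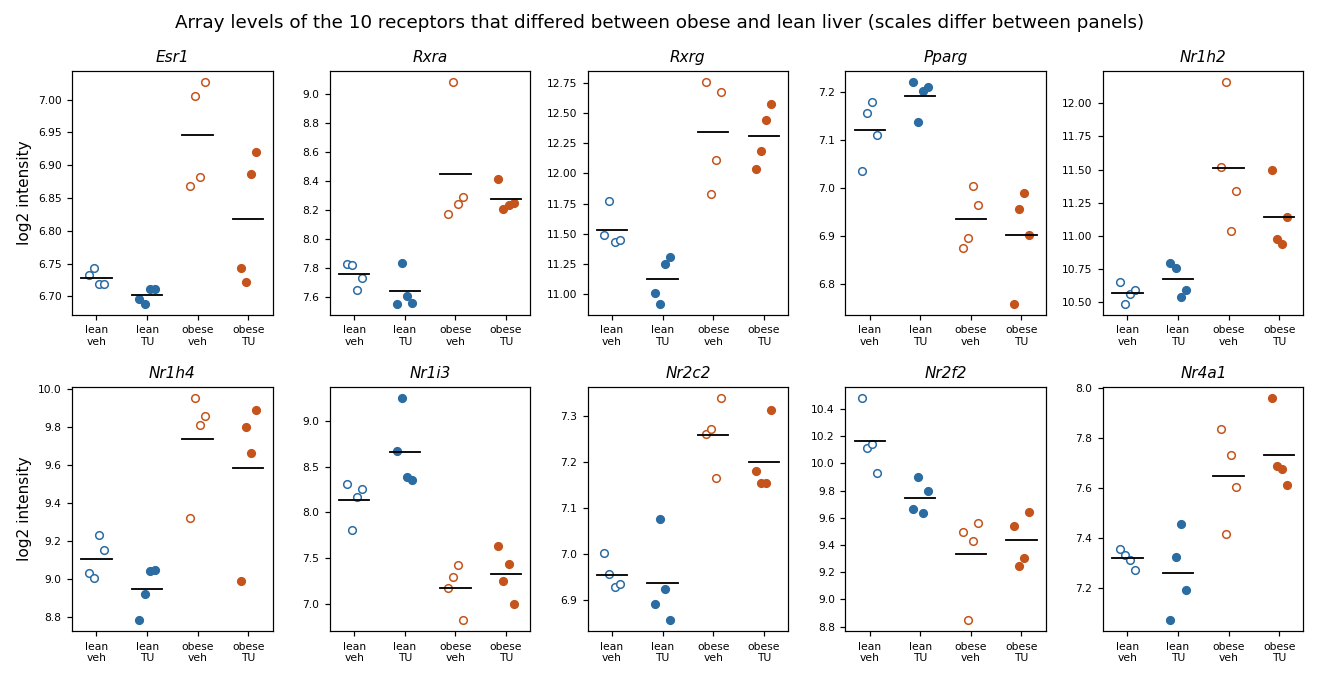
Log2 intensity (y axis, own scale in each panel) of the 10 receptors that passed the test in obese against lean liver, in lean vehicle, lean TU, obese vehicle and obese TU (x axis); points are arrays, open for Cy3 and filled for Cy5, and bars are means of 4 arrays. The 4 obese points lie below the lean points of the same dye for Nr1i3 and above them for Rxrg, Rxra and Nr1h2, and 1 obese array meets the lean range for Nr1h4 under TU.

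On their brightest probes, the glucocorticoid receptor and HNF4 alpha did not pass the test. Nr3c1 read 9.84 to 10.01 in lean vehicle and 9.67, 9.29, 9.82 and 10.13 in obese vehicle, and its differences were -0.20 ± 0.165 and -0.02 ± 0.134 (SE, adjusted p = 0.459 and 0.94 by limma). On that probe the groups overlapped in both dyes. A second Nr3c1 probe had differences of -0.59 ± 0.204 and -0.43 ± 0.0881. Under TU it read 9.93, 9.77, 9.65 and 9.89 in lean and 9.21, 9.39, 9.39 and 9.52 in obese, with no overlap, so the probes disagree on the size of the difference. It was not among the features adjusted for. The remaining probe had -0.31 ± 0.169 and -0.17 ± 0.0854, and with the gene's probes averaged the differences were -0.36 and -0.21 (adjusted p = 0.199 and 0.144). Hnf4a read 8.81, 8.76, 8.77 and 8.45 in lean vehicle and 9.33, 8.69, 8.54 and 8.90 in obese vehicle, or 0.17 ± 0.173, and 0.27 ± 0.179 under TU, where its other probe gave -0.22 ± 0.112. The groups overlapped in both dyes, and obese replicate 1 was the highest Hnf4a array in each.

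Of the 13 receptors not described array by array, Nr2c1 (TR2) had the widest spread. Its probe was not well above background on replicate 1 of either genotype and read 7.80 to 9.66 in vehicle on the other arrays. Nr3c2, Thra, Rara, Rxrb, Ppard, Nr1i2, Nr2c1, Nr2f1, Nr2f6, Nr4a2, Nr5a2, Esrra and Esrrg had differences between -0.45 (Esrra) and 0.61 (Nr2c1) under vehicle. Under TU they lay between -0.38 (Esrra) and 0.59 (Nr2c1). The groups of each overlapped in both dyes. Nr2f1 is another case in which probes disagree: the brightest gave -0.35 and 0.13 and a second -0.02 and -0.09. Nr3c2 (0.28, adjusted p = 0.0318) passed under vehicle without obese replicate 2, Nr1i2 (-0.44, adjusted p = 0.0255) under vehicle and Esrra (-0.64, adjusted p = 0.0375) under TU without obese replicate 1, by limma.

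**Figure D4:**
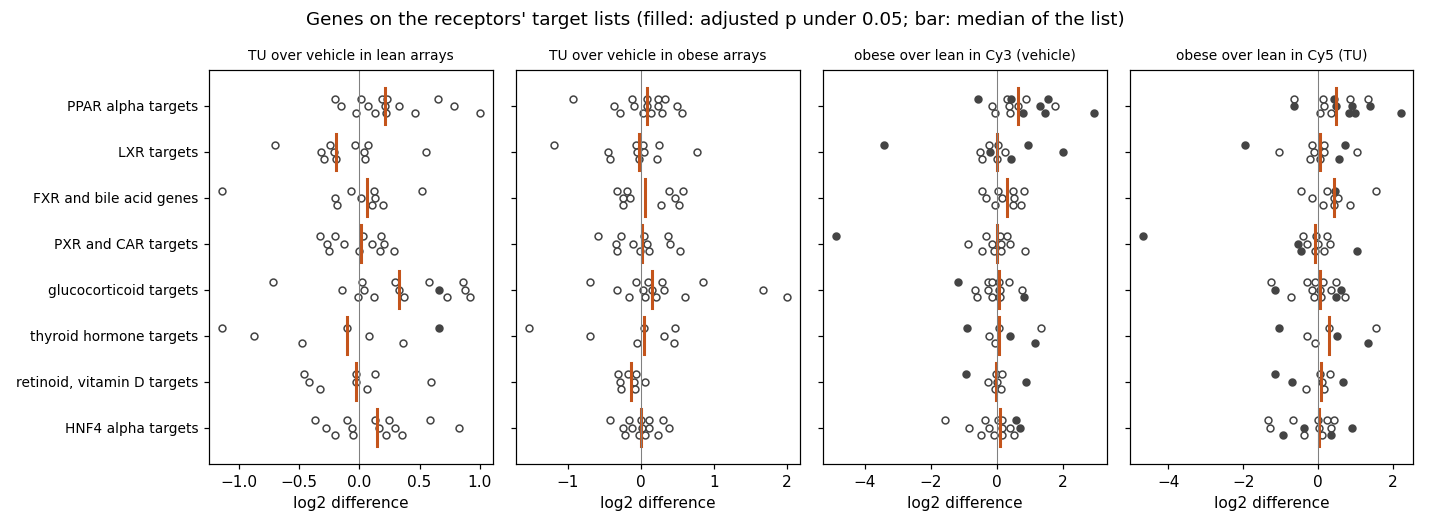
Log2 difference (x axis) of each measured gene on 8 lists of receptor target genes (rows) in 4 comparisons (panels); points are genes, filled where the adjusted p was under 0.05, and orange bars are list medians. In obese against lean the PPAR alpha targets have medians of 0.64 and 0.48, single genes such as Cyp3a2 (-4.89 and -4.69) lie far from their lists, and the TU panels hold a single filled gene, Klf9, on 2 lists.

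With TU against vehicle, the target lists had few calls. Of the genes on 8 lists, only Klf9, a hormone-induced transcription factor that is on both the glucocorticoid and the thyroid hormone list, passed in lean (0.66 ± 0.0868, SE, adjusted p = 0.0324 by limma) and 0 passed in obese. The Klf9 call was lost without any of 7 arrays (adjusted p up to 0.201). Of 15 glucocorticoid targets, 12 were above 0 in lean with a median of 0.33 and 11 in obese with a median of 0.15. Their first genes, Tat and Pck1, read -0.14 ± 0.249 and 0.92 ± 0.261 in lean. Of 15 PPAR alpha targets, 12 lay above 0 in lean (median 0.21) and 10 in obese (0.091). The lean directions depend on the normalization: with median centring in place of loess, which put the lean median of all features at -0.21, the PPAR alpha median in lean turned to -0.23 and the glucocorticoid median became 0.051, with 1 glucocorticoid target called lower and Klf9 no longer called. In obese that setting gave medians of 0.34 and 0.22. Without obese replicate 2, 2 PPAR alpha and 3 glucocorticoid targets passed as higher in lean, 1 glucocorticoid target as lower, and 0 of either list in obese.

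In obese against lean liver the other target lists were mixed. Their calls stand beside 7.54% of all features higher and 7.39% lower under vehicle, and 11.8% and 8.95% under TU. Of 15 glucocorticoid targets, Tdo2 was higher (0.81 ± 0.155, SE) and Igfbp1 lower (-1.18 ± 0.222) under vehicle. Under TU Tsc22d3 and Sgk1 were higher (0.62 ± 0.133 and 0.48 ± 0.128) and Igfbp1 again lower (-1.15 ± 0.228). Of 7 thyroid hormone targets, Thrsp, a lipogenic protein, and Fbp1 were higher and Dio1, the deiodinase that activates the hormone, lower under both treatments (-0.91 ± 0.156 and -1.05 ± 0.212 for Dio1). On the processed signals the vehicle difference of Fbp1 turned from 0.41 to -0.032 (adjusted p = 0.955). Of 8 retinoid and vitamin D targets, 1 was higher in both dyes. Lrat, which stores retinol as ester, was lower in both (-0.94 ± 0.177 and -0.70 ± 0.149) and Cyp26b1 under TU. Of 14 HNF4 alpha targets, the apolipoproteins Apoa1 (0.59 ± 0.155 and 0.35 ± 0.0946) and Apob (0.70 ± 0.166 and 0.91 ± 0.273) were higher in both. The Apoa1 call under TU was lost with the replicate block (adjusted p = 0.0872), and on the processed signals its difference turned to -0.032 (adjusted p = 0.94). The Apob call under TU lies at the threshold (adjusted p = 0.05 after rounding) and was lost without any of 7 arrays. Apoc3 and the male-predominant P450 Cyp2c11 were lower under TU (-0.37 ± 0.0879 and -0.94 ± 0.0898), and the Apoc3 call was lost with the replicate block (adjusted p = 0.0511). The 4 list medians lay between -0.012 and 0.28.

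Of 13 coregulators measured, 2 were higher in obese in both dyes, where 7.54% of all features were higher under vehicle and 11.8% under TU. Among the 2 was the acetyltransferase Crebbp (0.44 ± 0.0807 and 0.76 ± 0.0678, SE). None of the coregulators passed with TU in either genotype. Of 4 other receptors measured, only Nr1d2, a clock repressor, passed (0.36 ± 0.0835 and 0.27 ± 0.071). Over the target, coregulator and other receptor lists, 8 of 25 calls held without any 1 array under vehicle and 15 of 32 under TU. Crebbp, Dio1, Abca1, Abcg5, Cyp3a2 and Fgf21 were among those that held in both. The rest lost the call without at least 1 array, with adjusted p up to 0.127 and 0.128 by limma. With the replicate number as a block, the vehicle call of Crebbp was lost (adjusted p = 0.0631 by limma). So were those of Abcg8, Apoa1, Apob, Fbp1, Igfbp1, Lpcat3, Nr1d2, Tdo2 and Thrsp, and of the markers Col3a1, Pdgfrb and Fabp4 (0.0528 to 0.118).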

How the data were processed

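RNA of lean and obese livers was read on 4 dual-colour Agilent arrays per genotype, with a vehicle sample in Cy3 and a TU sample in Cy5. The deposited files hold median spot intensity, background intensity and processed intensity for each dye, with flags, as read by Feature Extraction 10.7.3.1 per the file headers. Their ratio is log10 of Cy5 over Cy3, per the file headers. The authors' value table, whose scale is not given, was found to be log2 of TU over vehicle: its slope on the deposited log10 ratio was 3.33 to 3.38 and its column medians 0.0459 to 0.139. It was used as an alternative only, and how it was centred is unknown. The files are on build rn4.

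Median intensities were corrected with normexp (offset 50) and normalized by loess within arrays, control and non-uniform spots at weight 0, with limma 3.58.1 in R 4.3.3. For single dyes Aquantile followed. A probe was kept if well above background in either dye on 4 or more of 8 arrays, and the brightest probe stood for a gene, which left 26950 probes and 24115 features of 41012 probes. Gene names came from RefSeq accessions for 16815 probes and from older array annotation for 195. Ratios were fitted with a mean per genotype, and each dye as obese against lean, by lmFit and eBayes with Benjamini-Hochberg adjustment over all features at 0.05.

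Values on every array were given for receptors past the threshold, for those at least 1.5-fold apart with no overlap, and for Ppara, Nr1h3, Nr1h4, Nr0b2, Hnf4a, Esr1, Nr3c1, Rxra and Nr1i3 in any case. The receptors and gene lists were chosen with earlier results of these data known. Same-numbered arrays share a position on the slide. Their Cy5 deviations from the group means correlated at 0.612, 0.172, 0.437 and 0.244, and their Cy3 deviations at 0.615, 0.0627, 0.403 and -0.0559. The highest correlation with another number was -0.227, 0.094, 0.41 and 0.205 in Cy5. In Cy3 it was -0.0741, 0.149, 0.272 and 0.344. In Cy5 same numbers lay above other numbers for each replicate, narrowly for replicates 3 and 4. In Cy3 they did so for replicates 1 and 3 only. The main fits hold no block, and its effect is given with the results. Data were simulated for 23757 features with independent normal noise at each feature's own spread, 50 features changed by 0.585 (log2) and 150 by 1. For TU in lean, obese over lean in Cy3 and in Cy5, 78.0%, 52.0% and 64.0% of those changed by 0.585 were recovered. Of those changed by 1, 94.0%, 73.3% and 82.7% were, with 14, 9 and 5 false calls. The changed features were drawn from all features, and no array stood apart, so these shares do not give the power for the receptors. Alternatives covered background correction, normalization, scaling, processed signals, the authors' table, filters, probe averaging, the block and each array left out. The number of arrays limits the precision. A few listed genes are counted in their lists but not reported here by name.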

Additional observations from a re-analysis of the deposited data

Results flagged for a closer look

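In 5 of 88 groups of 4 arrays examined, 1 array lay apart from the other 3 by more than Dixon's 95% criterion. Chance alone can give such a count, but each of the 5 was obese replicate 2 in the ratio of TU over vehicle. The log2 ratio of Thra was -0.98 on that array and -0.0102 to 0.0712 on the others. That of Rara, the retinoic acid receptor alpha, was -1.03 against -0.0243 to 0.0122. Ppara read -0.523 against -0.00481 to 0.0818. Nr1h2 (LXR beta) read -1.18 against -0.195 to -0.0156. Nr2f1 (COUP-TFI) was the one that lay above, at 1.38 against -0.0171 to 0.123. A second Nr2f1 probe read 0.120 on that array, against -0.045 to 0.115 on the other obese arrays. The same array had the widest spread of log2 ratios over all features (SD 0.462), whose part in these values was not tested.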

How the results depend on the processing

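For TU over vehicle, 0 receptors passed in obese and in the obese minus lean response under every alternative run. In lean, 0 passed under every alternative other than median centring in place of loess, under which 7 passed, all lower (Rxra, Rxrg, Nr1h4, Nr2f2, Nr2f6, Nr5a2 and Hnf4a). That setting put the median of all features at -0.21 and called 5725 of them, 285 higher and 5440 lower, against 32 and 17 of 49. Over all features, the lean count of 49 became 355 with no background correction, 258 on processed signals, 259 in the authors' table, 0 with scaled ratios and 22 with the replicate block, and the obese count of 3 became 83, 199, 195, 0 and 0. Obese over lean under vehicle gave 8 receptors, 1 with the replicate block (Nr1i3) and 2 to 11 with an array left out. Under TU it gave 8, 6 with the block and 4 to 10 with an array left out. Other alternatives gave 7 to 9 and 6 to 10. Over all features, the vehicle count of 3591 became 1491 with the block and 1525 to 5034 with an array left out. The TU count of 4994 became 4749 with the block and 3189 to 7684 with an array left out. Under TU processed signals gave 7290, with 3381 higher and 3909 lower against 2840 and 2154. Processed signals put the median of all features at -0.11 under vehicle. No called receptor changed direction. Signal over background limits Esr1, Esrrg, Pparg, Nr2c2 and Nr4a1, whose differences grew on processed signals where they were called. The cause of these changes was not tested.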
